A study of Arabidopsis thaliana with 6 samples.

Results

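The genes described here are 6 nuclear genes of Arabidopsis thaliana whose proteins are imported into the chloroplast and work in, or help to build, the photosystems and the chloroplast ATP synthase. They are PSAE-1 and PSAN of photosystem I, PSBW, PSBY and PSB27 of photosystem II, and ATPC1 of the ATP synthase. The members were chosen by gene symbol through the platform's annotation, with the rule that a gene is represented by its brightest probe set, the one with the highest mean over 6 arrays. A probe set is the group of short probes that reads 1 transcript. Each of the 6 genes had a single probe set paired with it alone, so the mean levels decided nothing, and all 6 were found among 13350 genes with a probe set of their own. These genes were picked with earlier results of the same data known, so the count of genes that moved together is a description of them.

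The mutant hda9-1 carries a T-DNA insertion (line SALK_001723) in HISTONE DEACETYLASE 9 (HDA9), the gene of a chromatin enzyme that takes acetyl groups off histones, and the wild type is Col. Dry seeds came from ripe siliques at 18 to 19 days after pollination. The plants grew in days of 16 h at 22 °C and nights of 8 h at 16 °C. Each genotype had 3 biological replicates with 1 Affymetrix ATH1 array each, and each replicate pooled siliques of at least 5 plants. The tissue label is dry seeds, whereas the design text of the series speaks of RNA from dry siliques, and the mutant is a single insertion line. The values are log2 expression values, so a difference of 1 is a doubling of the signal, and they compare 1 probe set between arrays, not one gene with another.

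Photosystem II splits water and passes electrons through the cytochrome complex to photosystem I, which reduces ferredoxin, and the proton gradient that results drives the ATP synthase. Each of these complexes is a mosaic: the core subunits that hold the pigments and cofactors are mostly encoded in the plastid genome, while many peripheral subunits, and the proteins that assemble the complexes, are encoded in the nucleus. Embryos of Arabidopsis are green for part of their development and lose their chlorophyll as the seed matures, and the dry seed holds a store of transcripts from that time. The comparison asked which transcripts differ in the mutant, in material labelled as dry seeds and described in the design text as dry siliques.

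The 6 arrays had medians of 5.41 to 5.46. HDA9 had no probe set in the annotation used here, so its transcript gave no check of the genotypes. On the first principal component, which held 46.9% of the variance, the hda9-1 arrays scored 20.5 to 25.6 and the Col arrays −29.8 to −11.8, with Col replicate 2 nearest to the mutant. On the second, which held 21.9%, Col replicate 3 stood farthest out at 25.8, and its actin probe sets had the steepest 3′ to 5′ difference, 1.58 against 1.17 to 1.28 in hda9-1 and 0.96 and 1.03 in the other Col arrays. The storage protein gene PAP85, a defining transcript of seeds, read 14.24 ± 0.03 in hda9-1 and 14.21 ± 0.06 in Col (SD, n = 3 each). These means lay near 14.94, the highest value on any array, so a change of PAP85 may be compressed. The other measured gene of the seed storage marker list, the oleosin gene OLEO3, read 9.43 ± 0.18 in hda9-1 and 10.04 ± 0.27 in Col (SD, n = 3 each). All hda9-1 arrays lay below all Col arrays for OLEO3 (limma adjusted p = 0.0805, or 0.0291 with the replicate number as a block). With 3 arrays a genotype, precision is limited by that number throughout.

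Of the 6 genes, PSAE-1 and ATPC1 rose in hda9-1 and PSB27 fell, each with an adjusted p under 0.05 in limma over all 22746 probe sets. PSAN, PSBW and PSBY had positive log2 changes that did not pass in this fit, in which genotype was the only term, and PSAN and PSBW passed with the replicate number as a block. In such bulk samples, fewer cells of a type and less RNA per cell cannot be told apart. Across all probe sets 1.37% were called higher and 2.45% lower by the same test. The median log2 change of the 6 genes was 0.87, beside −0.0048 over all probe sets, and 5 of the 6 changes were positive, beside 48.8% of all probe sets. Between 0 and 5 of the positive changes passed, depending on the fit and on which arrays were kept.

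**Figure D1:**
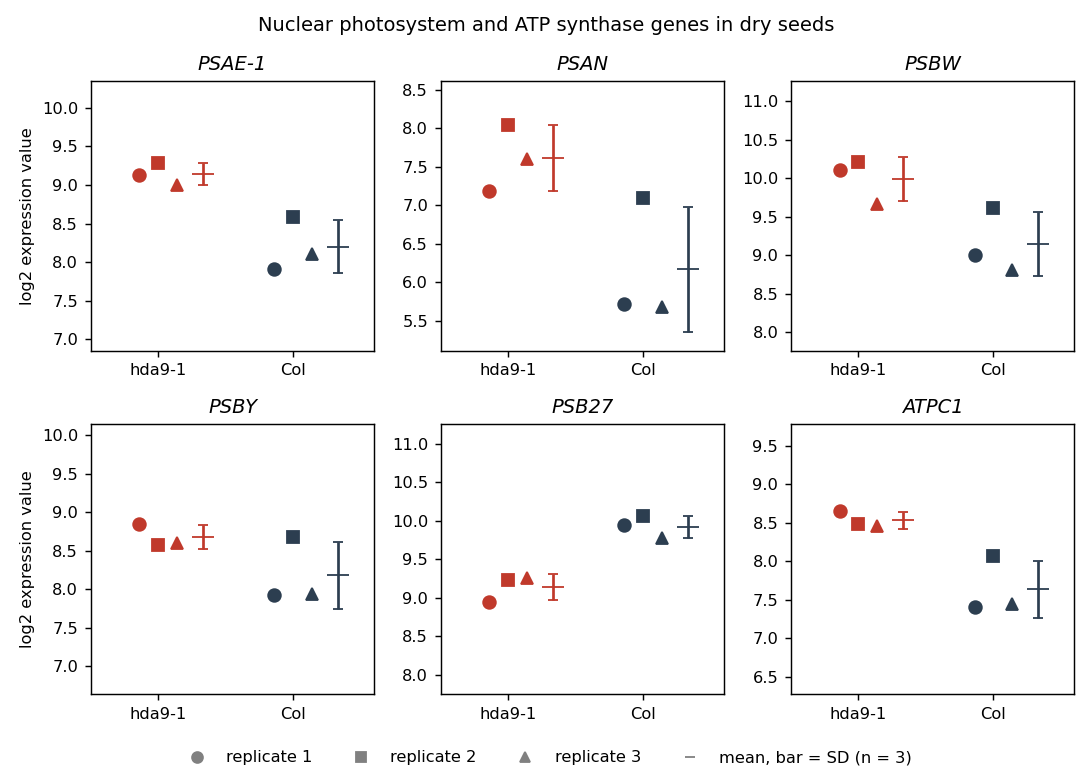
Log2 expression values (vertical axes, all of the same length but at different levels) of the 6 genes in the 3 hda9-1 arrays, in red, and the 3 Col arrays, in dark blue; symbols mark the replicate number and the bar beside each group is the mean ± SD (n = 3). The hda9-1 points lie above the Col points for PSAE-1, PSAN, PSBW and ATPC1 and below them for PSB27, and Col replicate 2 is the highest Col point in every panel.

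PSAE-1 encodes a stromal subunit of photosystem I at the side where ferredoxin docks, and Arabidopsis has a second copy, PSAE-2, that was not analysed here. PSAE-1 (AT4G28750) read 9.13, 9.28 and 9.00 in hda9-1 replicates 1 to 3, against 7.91, 8.58 and 8.11 in Col replicates 1 to 3. The groups did not overlap, and the lowest hda9-1 array stood 0.42 above the highest Col array. The means were 9.14 ± 0.14 in hda9-1 and 8.20 ± 0.34 in Col (SD, n = 3 each). The log2 change was thus 0.94 with an SE of 0.17, or 1.91-fold with a 95% interval of 1.45 to 2.54 (limma adjusted p = 0.0342). Of all probe sets, 0.822% had a larger log2 change.

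PSAN encodes a subunit on the lumen side of photosystem I, where plastocyanin delivers electrons. PSAN (AT5G64040) read 7.18, 8.04 and 7.61 in hda9-1, against 5.72, 7.10 and 5.69 in Col. Its Col spread was the widest of the 6 genes, with Col replicates 1 and 3 close together and Col replicate 2 far above them, within 0.08 of the lowest hda9-1 array. Col replicates 1 and 3 read under 6, the minimum mean that an alternative fit used against dim probe sets. The change of PSAN may thus be compressed. The means were 7.61 ± 0.43 and 6.17 ± 0.81 (SD, n = 3 each) in hda9-1 and Col, and the log2 change of 1.44 (SE 0.39), the largest of the 6, did not pass with genotype as the only term (limma adjusted p = 0.0924) and did with the replicate number as a block (limma adjusted p = 0.0161). Only 0.136% of all probe sets had a larger log2 change. Its 95% interval reached from 1.45-fold to 5.09-fold.

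PSBW encodes a small membrane subunit of photosystem II that helps to hold the antenna to the core. PSBW (AT2G30570) read 10.10, 10.21 and 9.67 in hda9-1, against 9.01, 9.61 and 8.81 in Col. The groups were separated by 0.06, the distance between hda9-1 replicate 3 and Col replicate 2. The means were 10.00 ± 0.29 in hda9-1 and 9.14 ± 0.42 in Col (SD, n = 3 each), and the log2 change was 0.85 (SE 0.23, limma adjusted p = 0.0875, or 0.0195 with the block).

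PSBY encodes a precursor that is cut into a pair of related small membrane proteins of photosystem II. PSBY (AT1G67740) read 8.85, 8.57 and 8.60 in hda9-1, against 7.93, 8.68 and 7.93 in Col. It was the 1 gene of the 6 whose groups overlapped, since Col replicate 2 lay above hda9-1 replicates 2 and 3. The log2 change of 0.49 (SE 0.21) did not pass (limma adjusted p = 0.250), and its 95% interval ran from 0.01 to 0.98, so neither almost no change nor a change close to a doubling was outside it.

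PSB27 encodes a lumenal protein that binds photosystem II while the complex is assembled or repaired and is not a subunit of the working complex. PSB27 (AT1G03600) read 8.95, 9.23 and 9.26 in hda9-1, against 9.94, 10.06 and 9.78 in Col. All hda9-1 arrays lay below all Col arrays, by at least 0.52. The means were 9.15 ± 0.17 and 9.93 ± 0.14 (SD, n = 3 each) in hda9-1 and Col. The log2 change was −0.78 with an SE of 0.12 (limma adjusted p = 0.0203), or 1.72-fold lower in hda9-1. It had the smallest SE and the lowest adjusted p of the 6, and 1.72% of all probe sets had a more negative log2 change. LPA19, a related gene whose protein acts in the maturation of the D1 protein of photosystem II, was at 5.97 ± 0.06 in hda9-1 and 5.91 ± 0.05 in Col (SD, n = 3 each), 0.06 higher on the log2 scale with an SE of 0.09 (limma adjusted p = 0.794). These means lay under 6, the minimum mean that an alternative fit used against dim probe sets, so a change of LPA19 may be compressed.

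ATPC1 encodes the gamma subunit, the shaft that turns inside the chloroplast ATP synthase and through which thioredoxin switches the enzyme on in the light. ATPC1 (AT4G04640) read 8.65, 8.48 and 8.45 in hda9-1, against 7.40, 8.06 and 7.44 in Col. The hda9-1 arrays lay within 0.20 of each other and 0.39 or more above the highest Col array. The means were 8.53 ± 0.11 in hda9-1 and 7.63 ± 0.37 in Col (SD, n = 3 each). The log2 change was 0.89 with an SE of 0.18, or 1.86-fold with a 95% interval of 1.39 to 2.48 (limma adjusted p = 0.0414). The second gamma subunit gene, ATPC2, was at 5.61 ± 0.10 in hda9-1 and 5.48 ± 0.25 in Col (SD, n = 3 each), 0.14 higher on the log2 scale with an SE of 0.14 (limma adjusted p = 0.683). These means also lay under 6, so a change of ATPC2 may be compressed.

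In arrays that did not overlap, the hda9-1 values were the higher ones for 4 of the 6 genes and the lower ones for 1. Over all probe sets the arrays were separated in those directions for 11.6% and 12.1%.

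**Figure D2:**
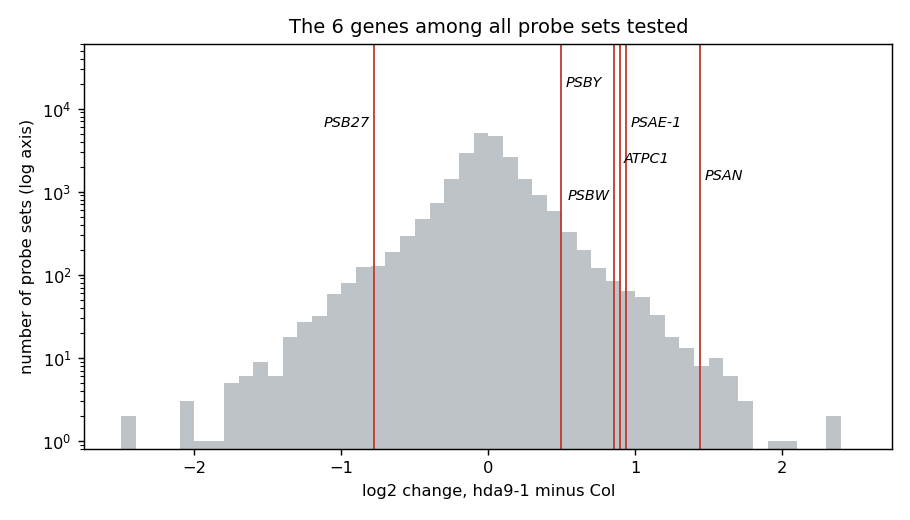
Number of probe sets (vertical log axis) by log2 change, hda9-1 minus Col (horizontal axis, bins of 0.1), for the 22746 probe sets tested, of which 4 lie outside the plotted range; red lines mark the 6 genes. PSAE-1, ATPC1, PSBW and PSAN lie in the right tail between 0.85 and 1.44, PSBY at 0.49, and PSB27 in the left tail at −0.78.

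The replicate numbers of the labels were taken to pair the arrays, because the deviations of same-numbered arrays from their group means correlated by more than 0.1 for every number. The pairing was thus chosen from these same data, and the adjusted p values with the block depend on it. With the replicate number as a block, limma called 2.75% of all probe sets higher and 3.64% lower. In that fit 4 of the 6 genes rose. The limma adjusted p with the block was 0.0161 for PSAN, 0.0165 for PSAE-1, 0.0195 for PSBW and 0.0374 for ATPC1. PSB27 fell (adjusted p = 0.0232), and PSBY again did not pass (adjusted p = 0.212). For PSAN the differences within the same number were 1.46, 0.94 and 1.92 for replicates 1, 2 and 3. For PSBY they were 0.92, −0.11 and 0.67, so the second pair ran the other way. For PSB27 they were −0.99, −0.83 and −0.52.

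**Figure D3:**
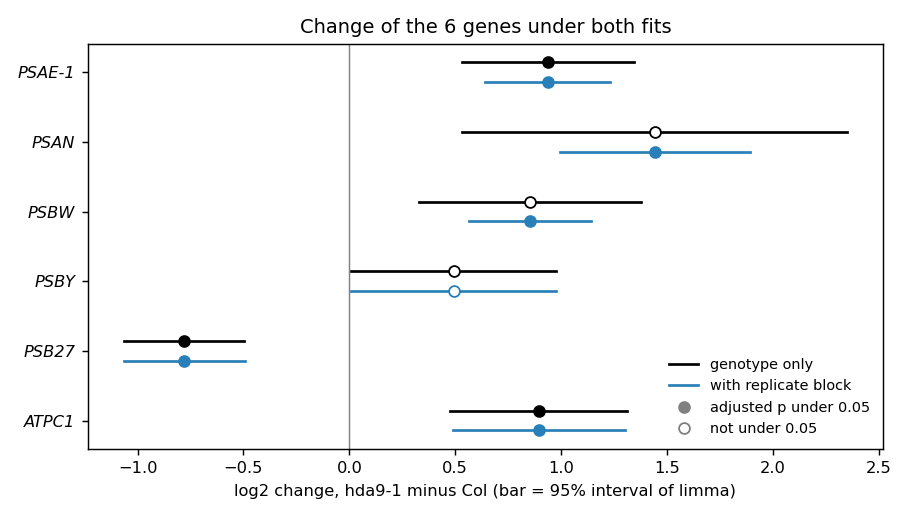
Log2 change, hda9-1 minus Col (horizontal axis), of the 6 genes with 95% limma intervals, from the fit with genotype only (black) and with the replicate number as a block (blue); filled points have an adjusted p under 0.05 over all probe sets. PSAN and PSBW are filled only with the block, where the SE of PSAN is 0.18 in place of 0.39.

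In the wild type 1 array stood apart for these genes. Col replicate 2 was the highest of the 3 Col arrays for 6 of the 6 genes, while over all probe sets it was the highest for 29.2%. It exceeded the mean of Col replicates 1 and 3 by 1.40 for PSAN, 0.75 for PSBY, 0.70 for PSBW, 0.64 for ATPC1 and 0.57 for PSAE-1, but by 0.20 for PSB27, against a median of −0.02 over all probe sets. The centred values averaged over the 5 genes other than PSB27, a grouping made after their values were seen, were 0.46, 0.59 and 0.34 in hda9-1 replicates 1, 2 and 3, against −0.73, 0.08 and −0.73 in Col replicates 1, 2 and 3. In this average Col replicate 2 lay between the other Col arrays and the mutant, while for PSB27 it was the Col array farthest from the mutant. The mutant arrays showed no such common order, with hda9-1 replicate 1 the highest for 2 genes, replicate 2 for 3 and replicate 3 for 1. The SD was smaller in hda9-1 than in Col for every gene except PSB27, and this difference in spread was not tested.

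The number of calls depended on single arrays. Without Col replicate 2, all 5 positive changes passed, from 0.74 for PSBY (limma adjusted p = 0.0311) to 1.91 for PSAN (limma adjusted p = 0.0177), where 1.68% of all probe sets were called higher. Without any one of the other 5 arrays, none of these 5 genes passed in limma at an adjusted p under 0.05. They had adjusted p values of 0.0755 to 0.528, while 4 of them, all but PSBY, had an unadjusted p under 0.05 in each of these fits. The share of all probe sets with an unadjusted p under 0.05 was not counted in any fit. Counts of genes at that threshold are therefore a description throughout. The share of all probe sets called higher was 0.339%, 0.101% and 0.431% without hda9-1 replicate 1, 2 and 3, and 0.119% and 0.747% without Col replicate 1 and 3. PSB27 passed without Col replicate 2 (limma adjusted p = 0.0421) or Col replicate 3 (limma adjusted p = 0.0278), and not without Col replicate 1 (0.0858) or hda9-1 replicate 1, 2 or 3 (0.0575, 0.0673 and 0.0511). The share of all probe sets called lower was 1.99%, 1.77% and 0.308% without Col replicate 2, 3 and 1, and 1.04%, 0.303% and 0.87% without hda9-1 replicate 1, 2 and 3. No log2 change of the 6 genes turned its sign in any of these fits.

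**Figure D4:**
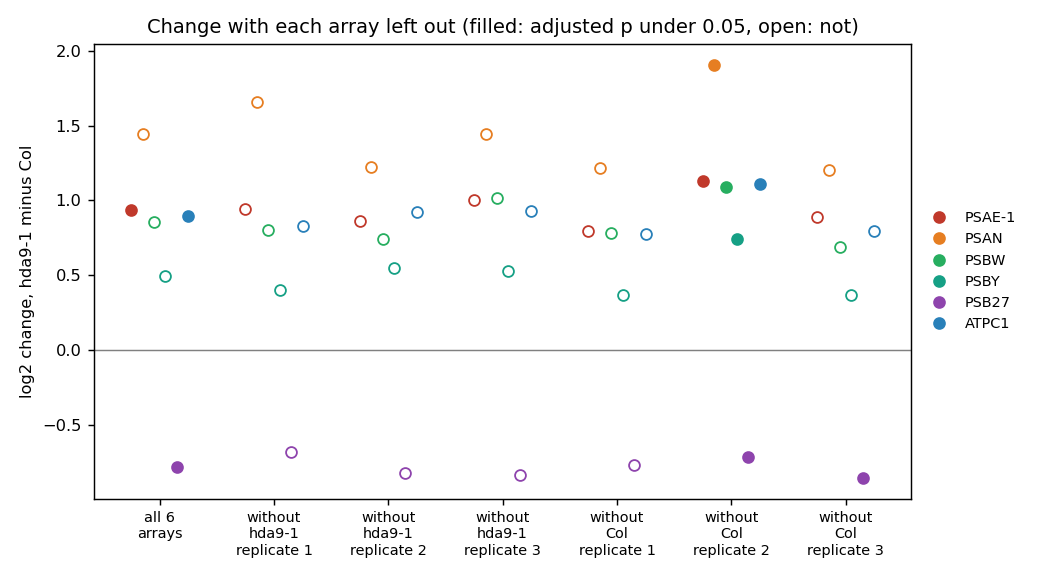
Log2 change, hda9-1 minus Col (vertical axis), of the 6 genes with all 6 arrays and with each array left out in turn (horizontal axis); filled points have an adjusted p under 0.05 over all probe sets. Every positive change is filled without Col replicate 2, and the values keep their sign in each of the 7 fits.

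Within photosystem II, the log2 changes of PSBW and PSB27 had opposite signs. The log2 value of PSBW minus that of PSB27, which is open to differences in probe response and is given only for its change between arrays, was 1.15, 0.98 and 0.41 in hda9-1 replicates 1, 2 and 3, against −0.94, −0.45 and −0.97 in Col. The pair was chosen after its values were seen, and no test was made. Over the 6 arrays, Pearson's r of a gene with the mean centred profile of the other 5 was 0.91 to 0.95 for PSAE-1, PSAN, PSBW, PSBY and ATPC1 and −0.73 for PSB27. These r values describe 6 arrays that fall into 2 genotypes and share Col replicate 2, and they have no p.

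The partners of these proteins in the same complexes were measured unevenly, where a measured gene is one with a probe set listed for it alone. Genes called not measured may still be read by the 503 probe sets with several listed genes or the 8730 for which the annotation lists no gene. Of 31 listed nuclear genes of the 3 complexes, 8 had a probe set of their own, the 6 genes together with LPA19 and ATPC2, so the nuclear subunits not analysed here number 23. None of 7 listed nuclear genes of electron transport, such as those of plastocyanin and ferredoxin, was measured. Of the plastid-encoded partners all 26 were measured, and 1 rose, psbK, a small subunit of photosystem II, at 9.77 ± 0.12 in hda9-1 and 9.12 ± 0.15 in Col (SD, n = 3 each). Its log2 change was 0.65 with an SE of 0.11 (limma adjusted p = 0.0288). With single arrays left out, psbK passed without Col replicate 3 (limma adjusted p = 0.0269) and had adjusted p values of 0.0547 to 0.112 without any other array. Of these 26 genes 24 had positive changes, beside 48.8% of all probe sets, with a median log2 change of 0.36. The 26 are not independent, since some had nearly equal values. In hda9-1 replicates 1 to 3 psaJ read 8.41, 8.90 and 8.16, and psbH 8.34, 8.83 and 8.12. In Col replicates 1 to 3 psaJ read 7.89, 7.89 and 8.28, and psbH 7.89, 7.90 and 8.29. With the replicate block 2 of the 26 genes rose, psbK and psbL (limma adjusted p = 0.0396 and 0.0425).

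In photosystem I none of the 5 plastid genes passed in limma (3 had an unadjusted p under 0.05). Of those 3, psaB, a core subunit, was at −0.53 (SE 0.18, limma adjusted p = 0.158). The others were psaA at 0.37 (SE 0.14, limma adjusted p = 0.204) and psaJ at 0.47 (SE 0.20, limma adjusted p = 0.257). The change of psaI was 0.30 (SE 0.28, limma adjusted p = 0.646), beside 0.94 for PSAE-1 and 1.44 for PSAN. In photosystem II, where psbK passed, 7 of the 15 plastid genes had an unadjusted p under 0.05 in limma. Of these 15 genes 14 had positive changes. The largest was psbI at 0.75 (SE 0.18, limma adjusted p = 0.0654), beside 0.85 for PSBW, 0.49 for PSBY and −0.78 for PSB27. In the ATP synthase none of 6 plastid genes passed in limma (1 had an unadjusted p under 0.05). There the log2 change was 0.33 (SE 0.11) for atpE, the epsilon subunit, and 0.23 (SE 0.11) for atpB, the beta subunit, beside 0.89 for ATPC1. The difference between the nuclear and the plastid genes was not tested, nor whether the arrays read both kinds of transcript alike. The counts of plastid genes at an unadjusted p under 0.05 have no share of all probe sets beside them and are a description only. Col replicate 2 was the highest Col array for 2 of the 26 plastid genes and the lowest for 15, beside 6 and 0 of the 6 nuclear genes, and beside 29.2% and 38.2% of all probe sets.

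**Figure D5:**
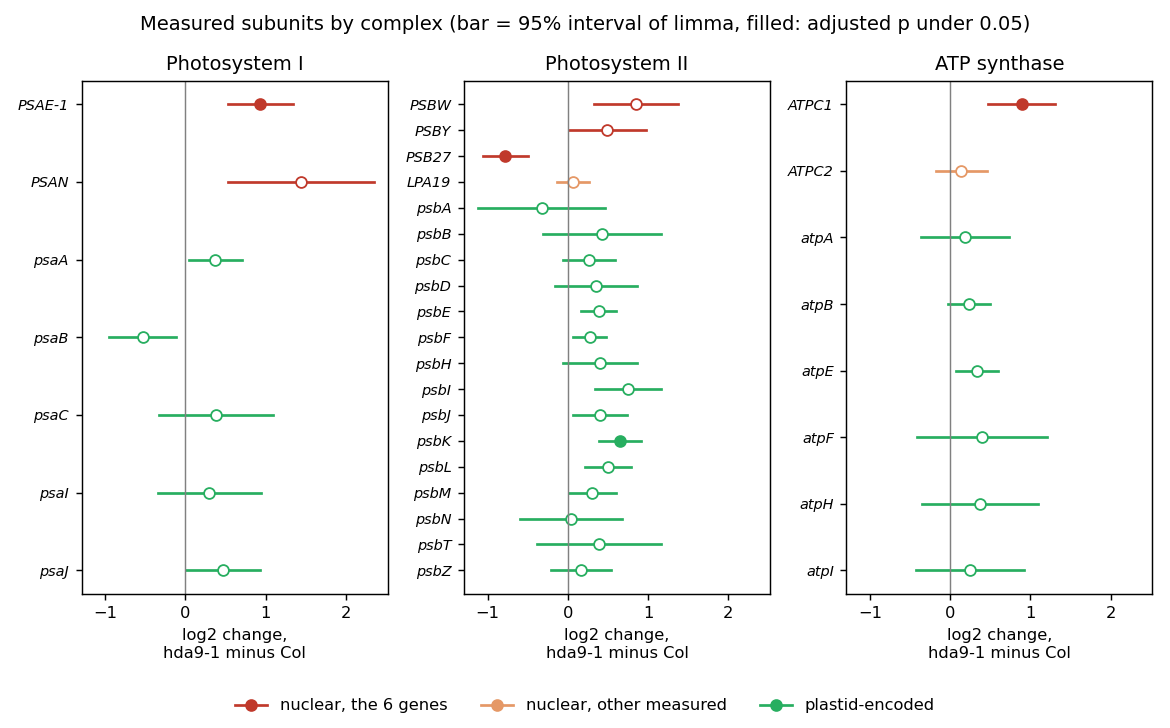
Log2 change, hda9-1 minus Col (horizontal axis), with 95% limma intervals, of the measured genes in the lists of photosystem I, photosystem II and the ATP synthase, without the separate list of assembly factors; red marks the 6 nuclear genes, orange LPA19 and ATPC2, green the plastid-encoded genes, and filled points have an adjusted p under 0.05 over all probe sets. The plastid genes lie between −0.53 for psaB and 0.75 for psbI, while the nuclear genes reach from −0.78 to 1.44.

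The lists of other assembly factors and of light harvesting gave no calls. Of 11 listed assembly factors, a list that does not hold PSB27, 5 were measured and none passed in limma (none had an unadjusted p under 0.05 either). HCF101, needed for the iron-sulphur clusters of photosystem I, was at −0.42 (SE 0.23, limma adjusted p = 0.382), and LPA1, a factor for photosystem II, at −0.07 (SE 0.15, limma adjusted p = 0.865). Their median log2 change was −0.05. Of 20 listed antenna genes 3 were measured and none passed in limma (1 had an unadjusted p under 0.05), with LHCB4.1 at 0.13 (SE 0.11, limma adjusted p = 0.616) and LHCB4.2 at 0.43 (SE 0.24, limma adjusted p = 0.396). The third, LHCB4.3, ran the other way at −0.53 (SE 0.17, limma adjusted p = 0.137), with all hda9-1 arrays below all Col arrays.

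Markers of other tissues were thinly covered. None of 7 listed genes of green tissue, such as those of the small subunit of Rubisco, was measured. Of 9 genes of the silique wall 2 were measured, ADPG1, a polygalacturonase of silique opening, which fell to 12.32 ± 0.15 in hda9-1 against 12.83 ± 0.02 in Col (SD, n = 3 each, limma adjusted p = 0.0399), and ALC, a transcription factor of the same process, at 6.64 ± 0.23 in hda9-1 and 6.24 ± 0.30 in Col (SD, n = 3 each, limma adjusted p = 0.285). The call of ADPG1 held without hda9-1 replicate 1 (limma adjusted p = 0.0469), and its adjusted p was 0.0684 to 0.135 without any other array. All hda9-1 arrays lay below all Col arrays for ADPG1 and above them for ALC, as for 12.1% and 11.6% of all probe sets. The log2 changes of these 2 genes, −0.51 and 0.39, offset each other in their mean level. That mean per array was 9.34 to 9.57 in hda9-1 and 9.37 to 9.65 in Col. Of 9 seed coat genes, ARA12 and BAN were measured with log2 changes of 0.31 and 0.10 (limma adjusted p = 0.157 and 0.586). For ARA12, as for 11.6% of all probe sets, all hda9-1 arrays lay above all Col arrays, while for BAN the groups overlapped. The mean level of ARA12 and BAN per array was 6.81 to 7.04 in hda9-1 and 6.64 to 6.73 in Col. Of 6 endosperm genes only AGL62 was measured, at 3.46 ± 0.11 in hda9-1 and 3.41 ± 0.31 in Col (SD, n = 3 each). AGL62 and the seed coat gene BAN (4.44 in hda9-1 and 4.34 in Col) read below the array medians of 5.41 to 5.46. At such levels a change may not be seen. The part of these tissues in the changes of the 6 genes was not tested.

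Of the 12 directly adjacent protein-coding genes in the RefSeq gene order, 7 were measured and none passed in limma, with or without the block. At an unadjusted p under 0.05 there was 1, AT5G64030, a neighbour of PSAN, with a log2 change of −0.41. The array's build is not stated in the sources used here, so no coordinates are given.

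Among 5181 other named genes with a mean level of at least 6, the 5 whose values over the 6 arrays were most like the mean centred profile of the 6 genes were AT2G36290, AT1G20770, AT4G17215, AT2G18740 and AT1G19130. Pearson's r was 0.981 to 0.993 over 6 arrays, and their log2 changes were 0.23 to 0.74 with limma adjusted p values of 0.0650 to 0.240. For PSB27 alone, a search added after its opposite direction was seen, the closest were AT1G18360 and AT3G26720, with r of 0.995 and 0.992 and log2 changes of −0.42 and −0.36. With so many genes and 6 arrays, high r values are common, and they are given as a description.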

How the data were processed

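Per the labels' protocols, biotin-labelled RNA of 3 hda9-1 and 3 Col seed samples was read on Affymetrix ATH1 arrays. The labels name Trizol for the extraction and the series' design text a column kit. The authors deposited log2 expression values per probe set, made with RMA, affy and limma as the tools that the submitters' processing notes list, with no version. RMA equalises the distributions of the arrays, so a shift of most transcripts would not be seen, and it compresses differences of dim probe sets. Of 22810 probe sets, 64 controls were left out. Names came from the platform's annotation, 13436 of 13513 probe sets with 1 gene updated through Entrez identifiers to the TAIR10.1 gene table. That table gave names and the order of neighbouring genes.

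A single limma fit held all 6 arrays (limma 3.58.1, R 4.3.3; lmFit, eBayes) with genotype as the only term, no filter on dim probe sets, two-sided p values adjusted by Benjamini-Hochberg over 22746 probe sets, and a call at an adjusted p under 0.05. This fit was tested on simulated data with independent arrays. That test covered neither correlated replicate numbers nor the replicate block. Log2 changes are hda9-1 minus Col. Same-numbered arrays correlated in their deviations across probe sets (r = 0.34, 0.21 and 0.21), other pairs between −0.35 and 0.09, and the pairing rests on the data alone. The alternatives were the replicate block, eBayes with trend and robust, array weights, median centring, cyclic loess, a minimum mean of 6, averaged probe sets per gene, and each array left out.

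The members and the gene lists were chosen with earlier results of these data known. The named genes were the 6, their measured relatives, from each photosynthesis list up to 4 called genes or else the 2 brightest, from each marker list up to 3 of the brightest, and the 5 closest in profile. Beyond this rule psaA, psaJ, psbH, psbI, psbL and LHCB4.3 were named from the photosynthesis lists.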

Additional observations from a re-analysis of the deposited data

How the results depend on the processing

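None of the 78 log2 changes of the 6 genes under the alternatives changed sign. Under the 7 alternatives that kept all arrays, PSAE-1, ATPC1 and PSB27 passed throughout and PSBY did not. With the replicate block 4 of the 6 genes were called higher in place of 2. PSAN (1.44, limma adjusted p = 0.0161) and PSBW (0.85, adjusted p = 0.0195) passed with the block, and 625 probe sets were called higher. With array weights PSBW passed (0.91, limma adjusted p = 0.0374), with 623 probe sets higher and 873 lower. Each gene has 1 probe set, so averaging probe sets moved only the adjustment. Besides PSAN and PSBW, the block changed the calls of psbL and OLEO3 and of no other measured gene of the lists.

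Leaving out single arrays gave 0 to 5 of the 6 genes called higher and 0 to 1 called lower, and over all probe sets 23 to 382 higher and 69 to 452 lower. The log2 change ranged from 0.79 to 1.13 for PSAE-1, 1.20 to 1.91 for PSAN, 0.69 to 1.09 for PSBW, 0.37 to 0.74 for PSBY, −0.85 to −0.68 for PSB27 and 0.78 to 1.11 for ATPC1. The median of the 6 changes ranged from 0.74 to 1.10. These fits have fewer samples. The number of arrays, and signal near background for dim probe sets, limit what can be called.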
